A study of Mus musculus with 7 samples.

Results

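The 10 genes described here make up the core of systemic and cellular iron handling in the hepatocyte: the hepcidins Hamp and Hamp2, the transferrin system (Trf, Tfrc, Tfr2 and Hfe), the iron carriers Slc39a14 and Slc40a1, and the ferritin subunits Fth1 and Ftl1. They were picked by symbol from a deposited expression table of 12151 genes, and all 10 were listed and passed the filter on low values. Messenger RNA of hepatocytes, isolated from the livers of mice, was sequenced. The libraries fall into 2 groups, 3 from wild-type (WT) and 4 with the genotype ALAS1/2-KO. The WT libraries carry no treatment. The ALAS1/2-KO libraries carry a tamoxifen label, and the study describes for them an Alas1 allele whose exons 4 and 5 can be removed by an inducible Cre, together with a GalNAc-coupled small interfering RNA against Alas2. Alas1 and Alas2 encode the enzymes that begin heme synthesis, the pathway that takes up much of a cell's iron. Genotype, tamoxifen and the small interfering RNA were given together and cannot be told apart. The labels give no strain, sex, age or promoter for Cre.

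Hepcidin, the product of Hamp, is a peptide hormone that the liver secretes when iron is plentiful or during inflammation. It binds ferroportin, the product of Slc40a1 and the exporter of cellular iron, and has it degraded, so that less iron enters the blood. Inside cells, iron regulatory proteins bind a stem-loop called the iron responsive element when iron is scarce. Bound at the start of a ferritin or ferroportin transcript, they hold back its translation, and bound near the end of the Tfrc transcript, they slow its decay. Transcript levels, which are all that was measured here, therefore report on Tfrc and Hamp control more directly than on ferritin control.

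The 2 hepcidin genes lie close together on chromosome 7, and the sequence before each start is shown because hepcidin is known to be controlled through elements there. The capitals mark, from left to right, the core of the BMP response element (GGCGCC, or the bases aligned with it in Hamp2), a STAT site (TTCNNNGAA) and an AP-1 site (TGANTCA). The bases are RefSeq promoter sequence of GRCm38.p6, the assembly also called mm10, printed 5′ to 3′ on the minus strand, at chr7:30944030-30944229 for Hamp and chr7:30924182-30924381 for Hamp2, each the last 200 bases before the RefSeq start.
Hamp: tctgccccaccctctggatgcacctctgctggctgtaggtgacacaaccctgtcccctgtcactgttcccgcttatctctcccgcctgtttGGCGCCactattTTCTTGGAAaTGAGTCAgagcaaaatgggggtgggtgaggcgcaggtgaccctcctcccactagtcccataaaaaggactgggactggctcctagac
Hamp2: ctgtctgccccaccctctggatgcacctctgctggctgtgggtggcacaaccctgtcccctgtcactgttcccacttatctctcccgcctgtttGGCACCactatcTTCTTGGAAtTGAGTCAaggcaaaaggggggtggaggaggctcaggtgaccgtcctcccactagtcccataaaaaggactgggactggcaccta

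The stretches were near copies of each other. Over the 250 bases before the starts, 227 aligned bases were identical and 20 differed, an identity of 91.9%. The BMP element began 109 bases before the Hamp start. The aligned bases, 106 before the Hamp2 start, differed from it by G4A, counted from 1 at the 5′ end of the element with the Hamp base given before the Hamp2 base. The STAT site was TTCTTGGAA in both genes, at 97 and 94 bases before the start, and the AP-1 site was TGAGTCA in both, at 87 and 84. Searched on both strands of the same 250 bases, GGCGCC was present in 9.59% of 32851 mouse promoters, TTCNNNGAA in 7.02% and TGANTCA in 6.75%. A match describes letters and was not tested as a working site. The annotation also holds a Hamp2 transcript that starts upstream, at 30924681, so that the stretch shown for Hamp2 lies in an intron of that transcript.

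A search for the iron responsive element in the untranslated regions (UTRs) found it in 4 of the 10 genes. The pattern was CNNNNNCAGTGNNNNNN, searched on the transcript strand, with the 5 bases on each side of the loop required to pair and the last loop base not G. It was present in 133 of 22527 coding genes, or 0.590%. The elements of Fth1 (chr19:9982732-9982760, plus strand), Ftl1 (chr7:45459779-45459807, minus strand) and Slc40a1 (chr1:45925465-45925493, minus strand) lie in the 5′ UTR. The search found 4 in the 3′ UTR of Tfrc, on the plus strand at chr16:32631219-32631247, chr16:32631598-32631626, chr16:32631663-32631691 and chr16:32631710-32631738. An element that departs from the pattern would not be found. The sequences come from the GENCODE M21 transcripts of mm10 and show the matches, with the loop in capitals. Binding of iron regulatory proteins to them was not tested.
Fth1: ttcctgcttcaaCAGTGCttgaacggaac
Ftl1: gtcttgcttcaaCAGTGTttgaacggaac
Slc40a1: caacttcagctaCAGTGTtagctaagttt
Tfrc, element 1: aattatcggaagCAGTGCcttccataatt
Tfrc, element 2: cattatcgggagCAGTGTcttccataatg
Tfrc, element 3: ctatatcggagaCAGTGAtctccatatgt
Tfrc, element 4: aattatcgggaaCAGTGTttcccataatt

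Levels are in CPM, read counts scaled to the size of the library, taken off the deposited log2 scale. Depth was 22916097 to 34048680 reads per library in WT and 27933939 to 30195635 in ALAS1/2-KO. Alas2 stood at 6.65 to 16.9 CPM in WT and at 0.198 to 0.800 CPM in ALAS1/2-KO, lower in every ALAS1/2-KO library. Alas1 stood at 83.5 to 279.5 CPM in WT and 287 to 361 in ALAS1/2-KO, and a value for the whole gene does not check a deletion of exons. The libraries also differed in what else they held: mitochondrially encoded genes took 31.9% to 43.2% of reads in WT and 16.8% to 27.3% in ALAS1/2-KO. Hepatocyte identity was clear in every library, with Alb alone at 7.86% to 9.98% and 5.41% to 6.63% of reads. All 10 hepatocyte markers were tested, and Alb, which fell, was the only one called, beside 5.1% of all genes tested. Markers of stellate cells (10 of 10 tested, 0 called) summed to 257 to 482 CPM in WT and 59.8 to 303 CPM in ALAS1/2-KO, those of lymphocytes (5 of 8 listed in the table, 1 lower) to 86.5 to 114 and 25.8 to 174, and those of cholangiocytes (2 of 6 listed, 1 lower) to 12.1 to 21.1 and 2.72 to 5.35. The log2 difference was negative for all 10 stellate cell markers, with a median of -1.29. Of them, 9 had an unadjusted limma p under 0.05, against 23.7% of all genes. The defining cholangiocyte markers Epcam and Krt19 are not in the table. Macrophage, endothelial and red cell markers are given beside the results they touch, and the part of other cells in the remaining results was not tested. The Y-linked genes Ddx3y and Eif2s3y were present in all 7 libraries, at 34.2 to 48.3 CPM and 37.2 to 48.0 CPM.

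Hamp2 was the only member called as changed, a call kept in 14 alternative fits and lost in 5. Hamp2 rose 3.48-fold in ALAS1/2-KO, while Hamp, transferrin, its receptors, Hfe, ferroportin and the ferritin light chain did not pass the test. Fth1 lay 1.30-fold lower and Slc39a14 1.71-fold higher with no overlap between the groups, and both missed the threshold. With limma and Benjamini-Hochberg adjustment over the 12105 genes tested, 1 of 10 members passed an adjusted p of 0.05, against 5.1% of all genes. It was higher in ALAS1/2-KO, as were 2.91% of all genes, and 0 members passed as lower, against 2.19%. The groups did not overlap for 3 of 10 members, against 22.7% of all genes, and 3 of 10 had an unadjusted p under 0.05, against 23.7%. The members' median log2 difference was 0.08, beside -0.02 over all genes tested. Read against these backgrounds, the counts of 1 and 3 among 10 genes give no result about the members as a group.

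**Figure D1:**
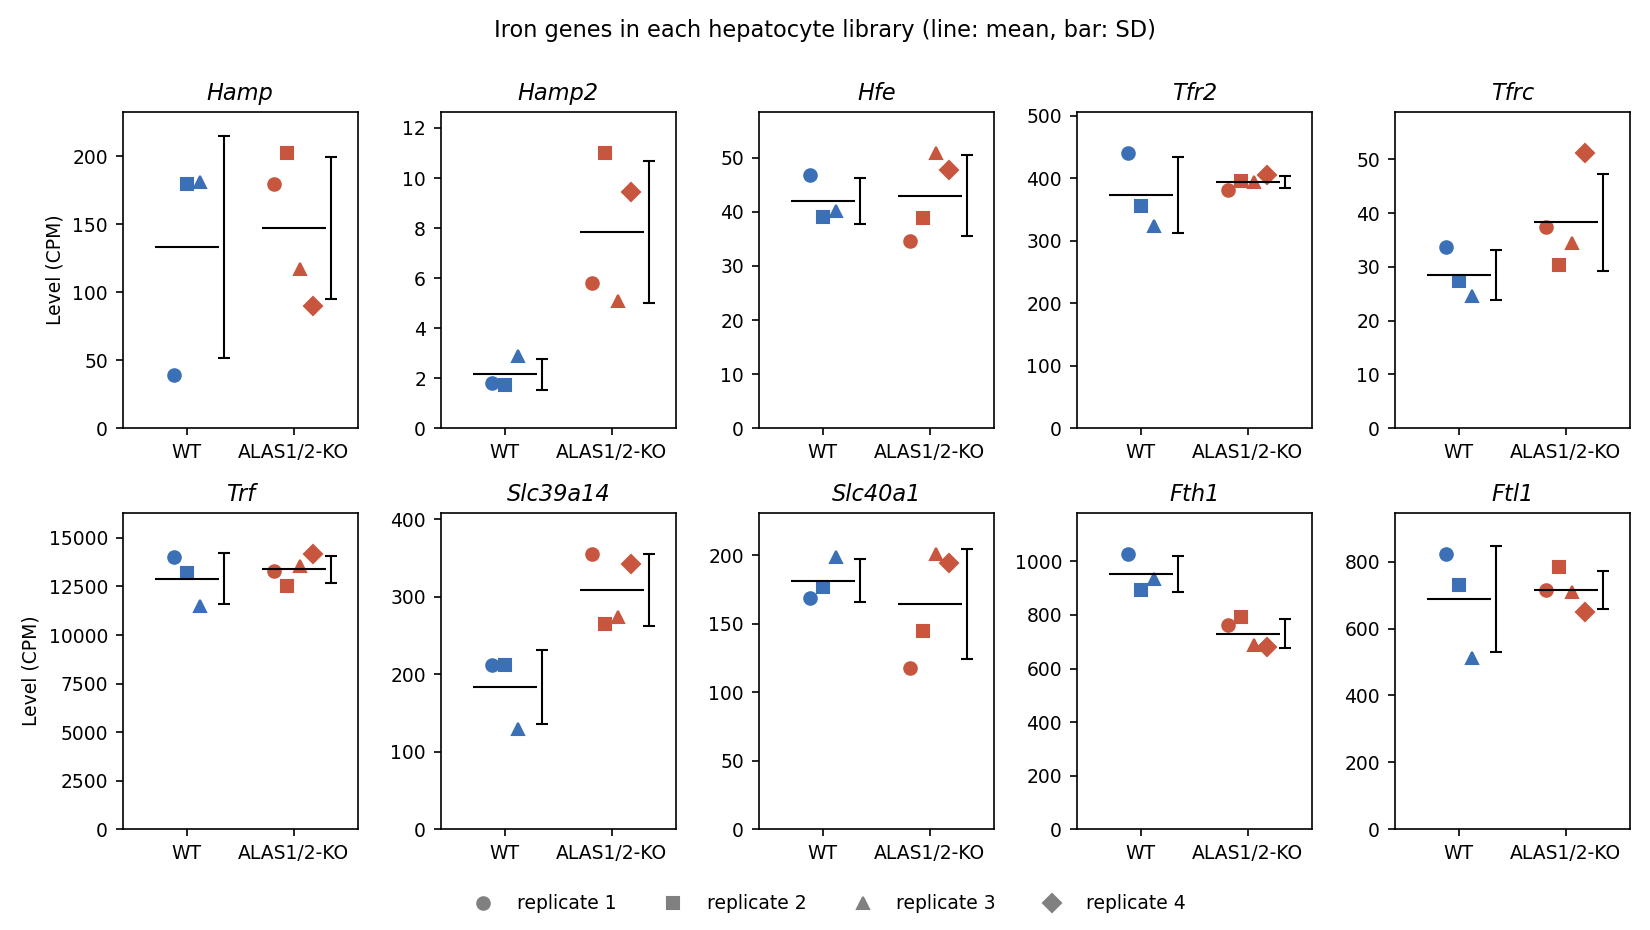
Level of each of the 10 iron genes in CPM (y axis, from 0, a scale of its own for each gene) in the WT and ALAS1/2-KO libraries. Each point is 1 library, its shape the replicate number, with the mean as a line and the SD as a bar. Hamp2, Fth1 and Slc39a14 are the genes whose points do not overlap between the groups, while WT replicate 1 stands low for Hamp at 39.0 CPM.

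Hamp, the hormone gene itself (ENSMUSG00000050440.8, chr7:30942368-30944032, minus strand), varied more within WT than between the groups. It stood at 39.0, 179.6 and 181 CPM in WT replicates 1 to 3 and at 179.8, 202, 117 and 89.8 CPM in ALAS1/2-KO replicates 1 to 4. The groups overlapped, and WT replicate 1 was the lowest of all 7 libraries. The means were 133 ± 81.5 CPM (SD, n = 3) and 147 ± 52.5 (SD, n = 4). The log2 difference was 0.37 with a standard error of 0.58 (limma, adjusted p = 0.737). Its 95% interval ran from 0.505-fold to 3.30-fold, so a fall or a rise of the hormone transcript within that range was not excluded. Without WT replicate 1 the log2 difference turned to -0.37, so 1 library set its direction.

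Hamp2 (ENSMUSG00000056978.8, chr7:30922372-30924681, minus strand) is a paralogue found in mice whose product, unlike that of Hamp, is not known to limit iron export. Its level was 1.83, 1.75 and 2.87 CPM in WT and 5.81, 10.99, 5.10 and 9.43 CPM in ALAS1/2-KO. Every ALAS1/2-KO library lay above every WT library. The means were 2.15 ± 0.627 CPM (SD, n = 3) and 7.83 ± 2.83 (SD, n = 4), a log2 difference of 1.80 with a standard error of 0.31 (limma, adjusted p = 0.0218) and a 95% interval of 2.13-fold to 5.69-fold. These values rest on 35 to 357 reads per library, against 747 to 6566 for Hamp. The call was lost in 5 of 19 alternatives, among them the fits without WT replicate 1 (adjusted p = 0.0774), without WT replicate 2 (0.123) and without ALAS1/2-KO replicate 4 (0.0558), and limma's voom on the recovered reads (0.0725), while the fold kept its direction.

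The hepcidin genes share sequence, which bears on how reads are assigned between them. Their transcripts were 94.6% identical over the aligned bases. Of all 50-base stretches, 16.6% of those in Hamp and 26.8% of those in Hamp2 also occur in another gene, in part a long noncoding RNA, Gm44662, whose exons overlap Hamp2 on the other strand. No source used here names the read counter or the strand setting, so Hamp2 values are uncertain to that extent. In ALAS1/2-KO, replicates 2, 1 and 3 had the same falling order in Hamp and in Hamp2, while replicate 4 was lowest in Hamp and next to highest in Hamp2. In WT, replicate 3 was highest in both. The part of shared reads in the Hamp2 difference was not tested.

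Whether the hepcidin genes moved by different amounts was asked of their log2 difference within each library. Hamp2 minus Hamp was -4.37, -6.63 and -5.94 in WT and -4.94, -4.19, -4.50 and -3.24 in ALAS1/2-KO. The group means differed by 1.43, or 2.69-fold, but WT replicate 1 lay among the ALAS1/2-KO libraries (exact two-sided permutation test over 35 regroupings, p = 0.143, adjusted p = 0.143 over 2 such pairs). In CPM, Hamp2 amounted to 4.69%, 0.973% and 1.59% of Hamp in WT and to 3.23%, 5.44%, 4.36% and 10.5% in ALAS1/2-KO. A difference in response between the genes was therefore not shown, although only Hamp2 passed its own test.

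**Figure D2:**
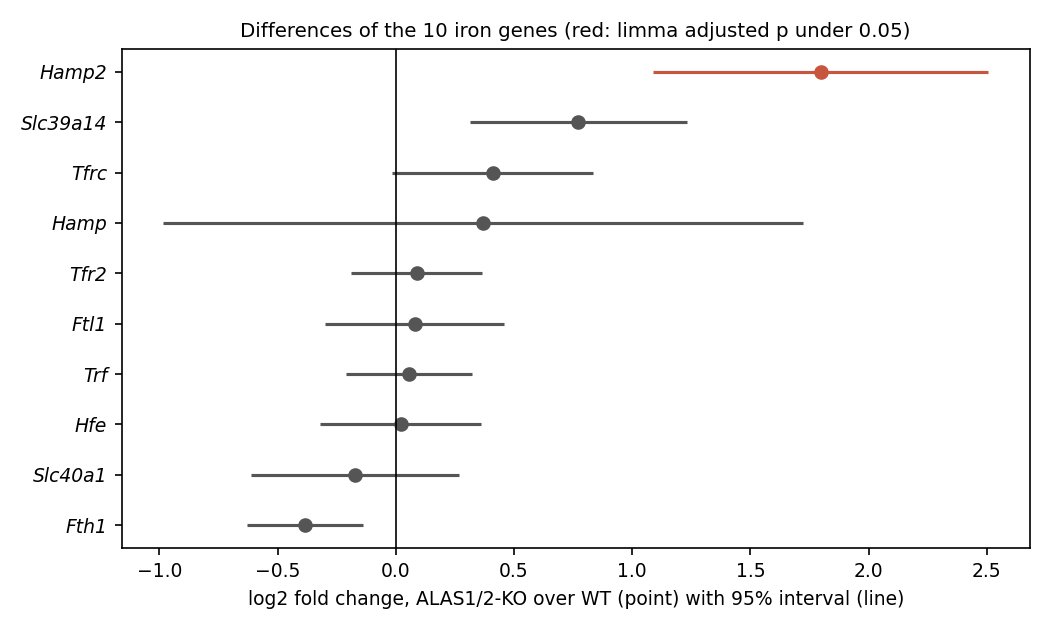
The log2 fold change of each member, ALAS1/2-KO over WT (x axis, point), with its 95% interval (line), ordered by size. Hamp2 at 1.80 is the member past the threshold and is drawn in red, Hamp has the widest interval, and Slc39a14 at 0.77 and Fth1 at -0.38 have intervals that leave out 0.

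The iron sensors of the hepatocyte surface, Hfe and Tfr2, overlapped between the groups. Hfe, a protein of the MHC class I type that pairs with transferrin receptors and is needed for normal hepcidin output (ENSMUSG00000006611.15, chr13:23702034-23710854, minus strand), stood at 46.9, 39.1 and 40.1 CPM in WT and 34.7, 38.8, 50.8 and 47.7 CPM in ALAS1/2-KO. Its groups overlapped throughout, with a log2 difference of 0.02 and a 95% interval of 0.802-fold to 1.28-fold (limma, adjusted p = 0.946). The transferrin receptor Tfr2, which senses iron-loaded transferrin in the hepatocyte (ENSMUSG00000029716.13, chr5:137569840-137587481, plus strand), stood at 439.6, 356 and 323 CPM in WT and at 381, 395, 393 and 404 CPM in ALAS1/2-KO. The ALAS1/2-KO libraries lay inside the WT range and were closer together, at 393 ± 9.71 CPM (SD, n = 4) against 373 ± 60.1 (SD, n = 3). The log2 difference of Tfr2 was 0.09, with a 95% interval of 0.878-fold to 1.29-fold (limma, adjusted p = 0.695).

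Among the genes of iron uptake, Slc39a14 had values that did not overlap between the groups, while Tfrc and Trf overlapped. Slc39a14 encodes ZIP14, the carrier by which hepatocytes take up iron not bound to transferrin (ENSMUSG00000022094.15, chr14:70303469-70351425, minus strand). It stood at 211, 211 and 129 CPM in WT and at 355, 264, 274 and 343 CPM in ALAS1/2-KO, with every ALAS1/2-KO library above every WT library. The means were 184 ± 47.7 CPM (SD, n = 3) and 309 ± 46.4 (SD, n = 4), a log2 difference of 0.77 with a standard error of 0.20 and a 95% interval of 1.24-fold to 2.35-fold. The unadjusted p was 0.0045 and the adjusted p 0.0676 in limma, short of the threshold. It passed with CPM rescaled to the listed reads (log2 difference 1.11, adjusted p = 0.0046) and with limma's weights per library (0.61, adjusted p = 0.0346).

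Tfrc, the receptor that carries iron-loaded transferrin into cells and whose transcript bears the 4 elements printed above (ENSMUSG00000022797.16, chr16:32608920-32632794, plus strand), stood at 33.6, 27.4 and 24.5 CPM in WT and at 37.3, 30.3, 34.5 and 51.1 CPM in ALAS1/2-KO. ALAS1/2-KO replicate 4 was the highest library and replicate 2 lay within the WT range. The log2 difference was 0.41 with a standard error of 0.19 and a 95% interval of 0.989-fold to 1.78-fold (limma, adjusted p = 0.225). Transferrin itself, Trf, is the plasma iron carrier that hepatocytes secrete (ENSMUSG00000032554.15, chr9:103204001-103230444, minus strand). Its level was 14025, 13206 and 11485 CPM in WT and 13308, 12505, 13553 and 14158 CPM in ALAS1/2-KO. The groups overlapped nearly fully, with a 95% interval of 0.864-fold to 1.25-fold (limma, adjusted p = 0.807). Of the 50-base stretches of Trf, 79.8% also belong to Gm20425, a gene model that overlaps it on the same strand, so reads of these 2 models cannot be told apart. With CPM rescaled to the listed reads, which moved the median log2 difference of all genes to 0.32, the limma test called Tfrc (log2 difference 0.74, adjusted p = 0.022), Tfr2 (0.42, 0.042) and Trf (0.39, 0.0491) as higher.

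The exporter transcript Slc40a1 overlapped between the groups, and its order over the libraries was close to that of macrophage markers. Ferroportin is made by hepatocytes and also by the macrophages of the liver, the Kupffer cells. Slc40a1 (ENSMUSG00000025993.10, chr1:45908068-45926523, minus strand) stood at 169, 177 and 199 CPM in WT and at 118, 145, 201 and 195 CPM in ALAS1/2-KO. ALAS1/2-KO replicates 1 and 2 were the 2 lowest libraries, and replicates 3 and 4 stood with WT replicate 3 at the top. The log2 difference was -0.17 with a standard error of 0.19 and a 95% interval of 0.654-fold to 1.20-fold (limma, adjusted p = 0.622).

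All 12 Kupffer cell and macrophage markers of the list were detected, none at 0, and none of them passed the test. The log2 difference was negative for all 12, with a median of -0.48, and 0 had an unadjusted limma p under 0.05, against 23.7% of all genes. Their summed level was 1181, 1010.3 and 1375 CPM in WT and 263, 773, 1685 and 1549 CPM in ALAS1/2-KO. The defining genes Clec4f and Cd5l stood at 51.0 and 63.2 CPM in ALAS1/2-KO replicate 1, against 177 to 249 CPM and 222 to 327 CPM in WT. The libraries low in these markers were those low in Slc40a1. Among the ALAS1/2-KO libraries, the summed endothelial, stellate cell and lymphocyte markers had the same order, so it was not particular to macrophage markers. In such bulk libraries fewer cells of a type and less RNA per cell cannot be told apart, and the part of macrophage RNA in the Slc40a1 values was not tested. Without ALAS1/2-KO replicates 1 and 2, a choice made after the data were seen, the log2 difference of Slc40a1 was 0.13.

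**Figure D3:**
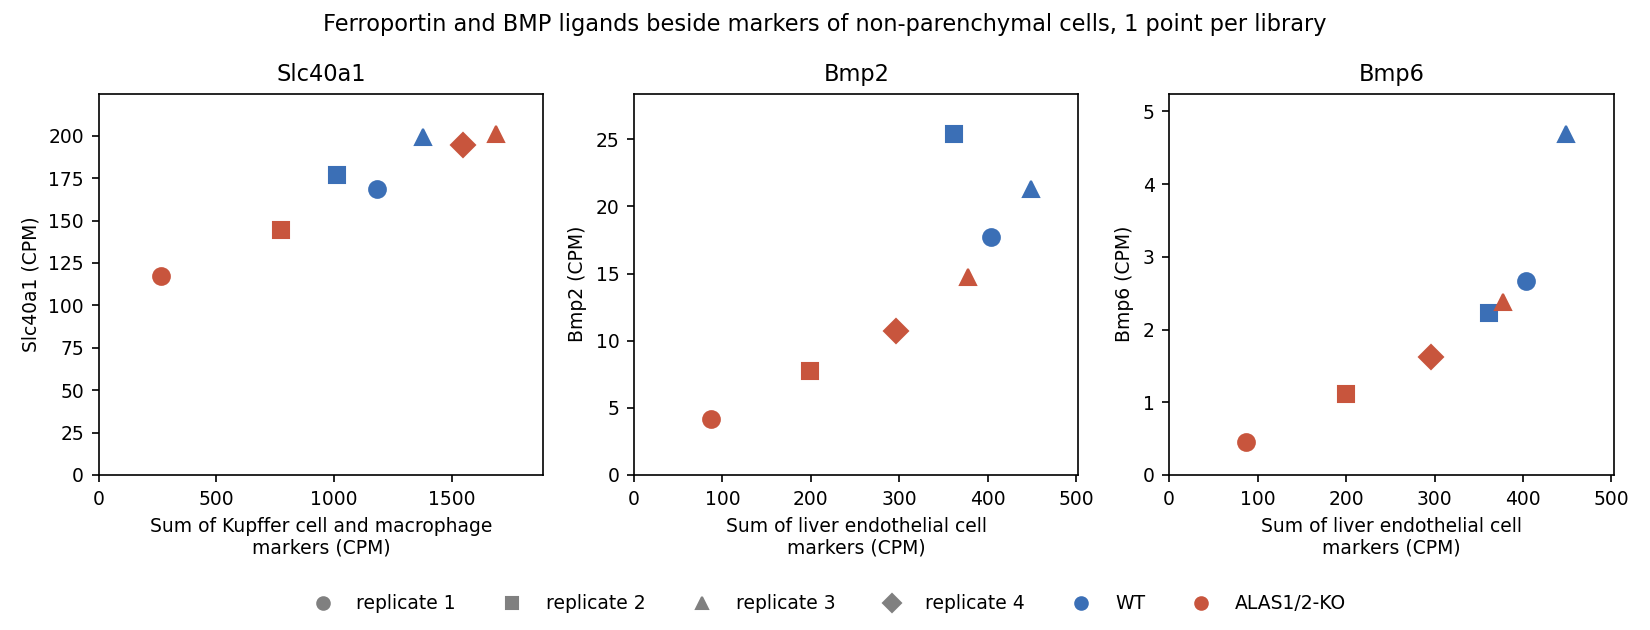
Each point is 1 library, coloured by group and shaped by replicate number. The panels plot Slc40a1 (CPM) against the summed Kupffer cell and macrophage markers (CPM), and Bmp2 and Bmp6 (CPM) against the summed liver endothelial cell markers (CPM), with both axes from 0. ALAS1/2-KO replicate 1 lies lowest on every axis, at 118 CPM of Slc40a1 and 263 CPM of macrophage markers.

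The ferritin subunits, which assemble into the shell that stores iron, did not pass the test: Fth1 was lower in every ALAS1/2-KO library, and Ftl1 overlapped. Fth1, the heavy chain that oxidises incoming iron (ENSMUSG00000024661.7, chr19:9980598-9985098, plus strand), stood at 1027, 895 and 935 CPM in WT and at 761, 791, 687 and 681 CPM in ALAS1/2-KO. Every ALAS1/2-KO library lay below every WT library. The means were 952 ± 67.5 CPM (SD, n = 3) and 730.2 ± 54.2 (SD, n = 4), a log2 difference of -0.38 with a standard error of 0.11 and a 95% interval of 0.647-fold to 0.908-fold.

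Ftl1, the light chain that helps form the iron core (ENSMUSG00000050708.16, chr7:45457944-45459884, minus strand), stood at 822, 729.7 and 512 CPM in WT and at 716, 786, 709 and 648 CPM in ALAS1/2-KO. WT replicate 3 was the lowest library and WT replicate 1 the highest, so the WT range enclosed every ALAS1/2-KO value. The means were 688 ± 159 CPM (SD, n = 3) and 715 ± 56.1 (SD, n = 4), with a 95% interval of 0.813-fold to 1.37-fold (limma, adjusted p = 0.806). Of the 50-base stretches of Ftl1, 90.6% also occur in 17 other annotated genes, mostly processed copies, against 6.59% for Fth1, so the Ftl1 count depends on how such reads were assigned. Fth1 had an unadjusted p of 0.0064 and an adjusted p of 0.0823 in limma, and it passed with quantile normalization (log2 difference -0.50, adjusted p = 0.0285), with scaling that left out mitochondrial genes and the 20 most abundant genes (-0.45, 0.0386) and with limma's weights per library (-0.40, 0.0223). With CPM rescaled to the listed reads, its log2 difference was -0.048 (adjusted p = 0.818), beside the median of 0.32 over all genes on that scale.

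The ratio of heavy to light chain is a property of the ferritin shell, and its transcripts were compared within each library after their values had been seen. Fth1 minus Ftl1 on the log2 scale was 0.32, 0.29 and 0.87 in WT and 0.09, 0.01, -0.05 and 0.07 in ALAS1/2-KO. Fth1 thus amounted to 125%, 123% and 182% of Ftl1 in CPM in WT and to 106%, 101%, 96.9% and 105% in ALAS1/2-KO. Every ALAS1/2-KO library lay below every WT library, by 0.46 on the log2 scale between the means, or 1.38-fold. The exact two-sided permutation test gave p = 0.0286, the smallest that 35 regroupings allow, and an adjusted p of 0.0571 over the 2 pairs. Neither value covers the choice of this pair after the data were seen. The ratio also depends on how the shared Ftl1 reads were assigned. Without WT replicate 3 the difference between the means was -0.28 (exact permutation p = 0.0667, the smallest possible there).

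**Figure D4:**
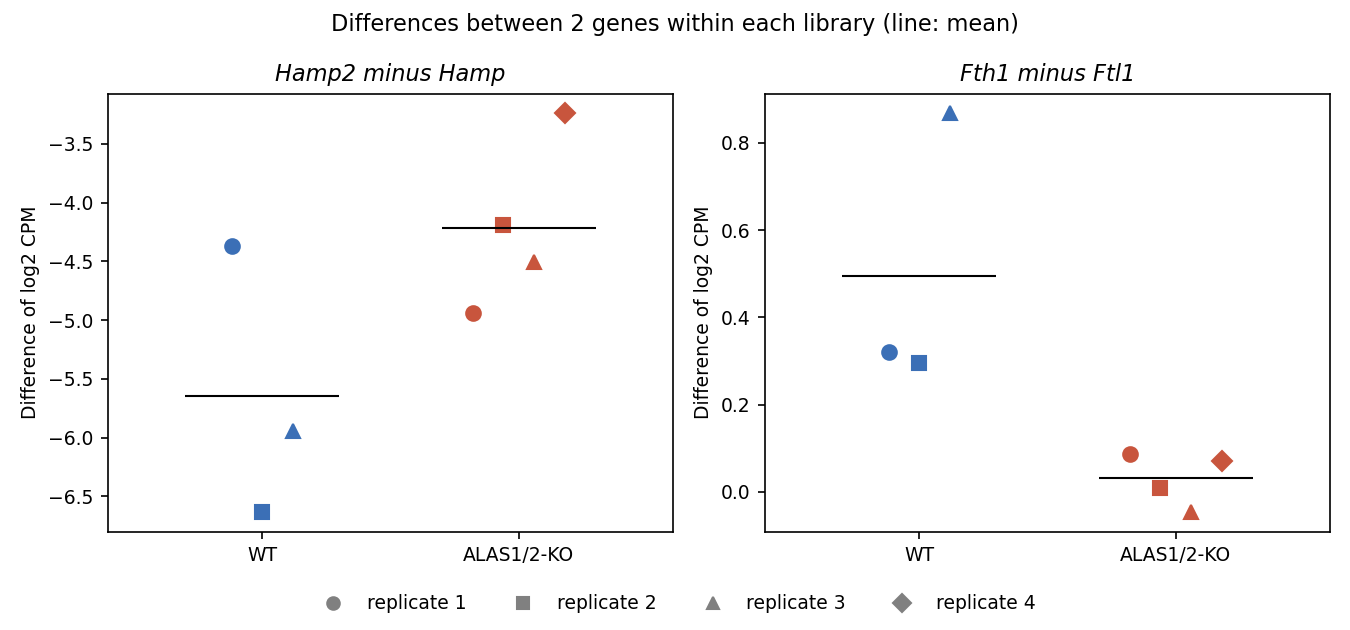
Difference of log2 CPM between 2 genes within each library (y axis), for Hamp2 minus Hamp and for Fth1 minus Ftl1, with 1 point per library shaped by replicate number and the group mean as a line. For the hepcidins, WT replicate 1 at -4.37 lies among the ALAS1/2-KO libraries, while for the ferritins all 4 ALAS1/2-KO libraries lie between -0.05 and 0.09, below the 3 WT libraries.

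Per kilobase of transcript, which lets levels of different genes be compared, the members spanned a wide range. In WT the order was Trf at 5019.6 ± 504 CPM per kb (SD, n = 3), Fth1 at 1025 ± 72.7, Ftl1 at 711 ± 164, Hamp at 325 ± 199, Tfr2 at 127 ± 20.5, Slc40a1 at 53.9 ± 4.69, Slc39a14 at 37.3 ± 9.68, Hfe at 11.8 ± 1.19, Tfrc at 5.83 ± 0.948 and Hamp2 at 4.91 ± 1.43. Secreted transferrin and the ferritins thus led, and the receptor Tfrc, which hepatocytes hold at low level next to Tfr2, was near the bottom. Among neighbours in this order the libraries overlapped for Hamp (95.1 to 441) and Tfr2 (110.4 to 150.2), and for Tfrc (5.02 to 6.87) and Hamp2 (4.00 to 6.57), and for no other pair.

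In ALAS1/2-KO the order of means differed in 2 places. Hamp2 stood at 17.9 ± 6.48 CPM per kb (SD, n = 4), with libraries from 11.7 to 25.1, above Tfrc at 6.19 to 10.5 and overlapping Hfe at 9.71 to 14.2. Slc39a14 at 62.7 ± 9.41 (SD, n = 4) had a higher mean than Slc40a1 at 48.8 ± 11.9, and their libraries overlapped (53.6 to 72.0 and 34.9 to 59.6). Fth1 and Ftl1, which did not overlap in WT, did so here, at 734 to 851 and 669.9 to 812. These are descriptions of levels, and the change of order itself was not tested.

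The genes that set hepcidin output were read from a list of BMP and SMAD pathway genes. In the liver, BMP2 and BMP6 are made mainly by endothelial cells and act on hepatocytes through receptors, hemojuvelin (Hjv) and SMAD proteins, while the protease Tmprss6 cuts hemojuvelin and holds the signal down. Of the 15 genes tested, 0 passed the limma test in either direction, against 5.1% of all genes. In that list 5 had an unadjusted p under 0.05, against 23.7% of all genes, and 2 did not overlap between the groups, against 22.7%. Voom called 0, and the median log2 difference was -0.09. The ligand Bmp2 stood at 17.7, 25.4 and 21.3 CPM in WT and at 4.17, 7.72, 14.8 and 10.7 CPM in ALAS1/2-KO, a log2 difference of -1.32 (limma, adjusted p = 0.109). It passed without ALAS1/2-KO replicate 1 (log2 difference -0.99, adjusted p = 0.0449), with weights per library (-1.04, 0.0456) and without ALAS1/2-KO replicates 1 and 2 (-0.75, 0.0342). Bmp6 stood at 2.66, 2.22 and 4.69 CPM in WT and at 0.454, 1.11, 2.38 and 1.62 CPM in ALAS1/2-KO (log2 difference -1.30, limma adjusted p = 0.184).

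Endothelial markers also varied between the libraries. All 10 markers of liver endothelial cells were detected and 0 passed the test, against 5.1% of all genes. The log2 difference was nevertheless negative for all 10, with a median of -0.98, and 2 had an unadjusted limma p under 0.05, against 23.7% of all genes. The groups did not overlap for 3 of them, against 22.7% of all genes. Their summed level was 403, 362 and 449 CPM in WT and 86.8, 199, 378 and 296 CPM in ALAS1/2-KO. Among the ALAS1/2-KO libraries, Bmp2, Bmp6 and the marker sum had the same order, replicate 1 lowest and replicate 3 highest. The order was not particular to endothelial markers. Macrophage markers shared it, as did those of stellate cells (59.8, 125, 303 and 210 CPM) and lymphocytes (25.8, 102, 174 and 151 CPM). In WT, Bmp6 had the order of the marker sum, while Bmp2 was highest in replicate 2, where the sum was lowest. The part of endothelial RNA in the Bmp2 and Bmp6 values was not tested. Of the regulators that hepatocytes make, Hjv stood at 56.7, 59.7 and 63.6 CPM in WT and at 46.7, 69.3, 38.5 and 40.5 CPM in ALAS1/2-KO (log2 difference -0.34, limma adjusted p = 0.330). Tmprss6 stood at 276, 207 and 207 CPM in WT and at 259, 313, 325 and 275 CPM in ALAS1/2-KO (log2 difference 0.36, limma adjusted p = 0.176). Fgl1, a secreted liver protein that binds BMP ligands and dampens hepcidin, had a log2 difference of -0.72 with overlapping groups (limma, adjusted p = 0.174).

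The transcripts that BMP and SMAD signalling raises gave no call. Of 7 response genes, 0 passed, against 5.1% of all genes, and 1 had an unadjusted p under 0.05, against 23.7%. Voom called 0 of the 7, and their median log2 difference was -0.24. Id1, a classical target read beside Hamp in the liver, stood at 6.11, 6.19 and 8.43 CPM in WT and at 2.57, 3.91, 5.93 and 6.73 CPM in ALAS1/2-KO (log2 difference -0.60, limma adjusted p = 0.302). Smad7, the feedback inhibitor, stood at 7.36, 6.99 and 6.59 CPM in WT and at 4.84, 8.06, 7.76 and 10.5 CPM in ALAS1/2-KO (0.11, adjusted p = 0.818). Id2 and Id3, the most abundant genes of that list, had log2 differences of 0.36 and -0.24 with overlapping groups.

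The inflammatory arm of hepcidin control is known to act through IL6 and STAT3. Of 18 genes of that response, 1 fell and 0 rose, against 2.19% and 2.91% of all genes. An unadjusted p under 0.05 was found for 3 of them, against 23.7% of all genes, and the median log2 difference was -0.25. The gene that fell was Apcs, serum amyloid P, a plasma protein of the acute phase in mice. It stood at 299.5, 190.2 and 184 CPM in WT and at 91.3, 72.9, 55.2 and 84.2 CPM in ALAS1/2-KO, a 2.93-fold difference (limma, adjusted p = 0.0108, and 0.0559 without WT replicate 2). Saa1, serum amyloid A, stood at 3347 CPM in WT replicate 1 and at 79.6 to 245 CPM in the other 6 libraries (log2 difference -1.87, limma adjusted p = 0.348). WT replicate 1 was thus highest in Saa1 and lowest in Hamp. It was also highest in Saa2 (1764 CPM, against 25.5 to 56.9 in the other libraries), Lcn2 (184, against 31.0 to 86.7) and Itih4 (6729, against 3092 to 4037). Not every gene of the list went this way, and in Socs3 this library was lowest. Its part in the median of the list was not tested. Socs3, the feedback inhibitor of STAT3, stood at 36.0, 38.9 and 98.4 CPM in WT and at 100.6, 73.6, 36.5 and 50.8 CPM in ALAS1/2-KO (0.24, adjusted p = 0.787). Haptoglobin, Hp, which clears free hemoglobin, had a log2 difference of -0.56 (limma, adjusted p = 0.210), and the fibrinogen gene Fgb -0.18.

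**Figure D5:**
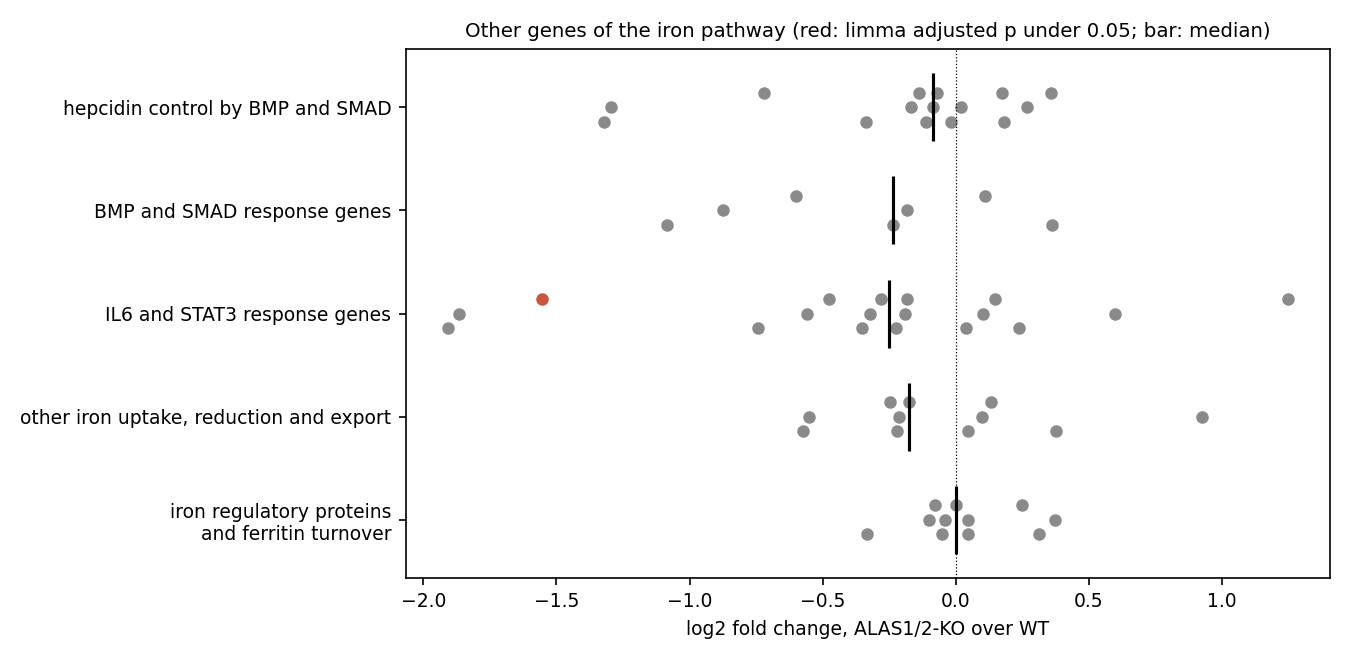
The log2 fold change, ALAS1/2-KO over WT (x axis), of each tested gene in 5 lists of the iron pathway (y axis). Each point is 1 gene, red where the limma adjusted p was under 0.05, and the black bar is the median of the list. The red point is Apcs at -1.55.

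Of the other genes of iron uptake, reduction and export, 0 of 11 passed, against 5.1% of all genes. An unadjusted p under 0.05 was found for 2 of them, against 23.7% of all genes, and voom called 0. Ceruloplasmin, Cp, the copper enzyme that oxidises exported iron so that transferrin can take it up, stood at 1549, 1523 and 1496 CPM in WT and at 1433, 1286, 1245 and 1441 CPM in ALAS1/2-KO. Its groups did not overlap, and the log2 difference was -0.17 (limma, adjusted p = 0.336). Lrp1, a receptor that takes up heme bound to hemopexin, had a log2 difference of 0.04 with overlapping groups.

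The iron regulatory proteins and the machinery of ferritin turnover also gave no call, with 0 of 11 genes passing, against 5.1% of all genes. There were 2 at an unadjusted p under 0.05, against 23.7% of all genes. Voom called 0, and the median log2 difference was 0.00. Aco1, which serves as an iron regulatory protein when it lacks its iron-sulfur cluster, stood at 106, 99.3 and 82.5 CPM in WT and at 122, 116.5, 113 and 104 CPM in ALAS1/2-KO (log2 difference 0.25, limma adjusted p = 0.232). Ireb2, the other iron regulatory protein, stood at 44.2, 42.8 and 44.7 CPM in WT and at 53.1, 51.2, 39.8 and 39.1 CPM in ALAS1/2-KO (0.05, adjusted p = 0.859). Both proteins are known to be controlled by iron mainly after transcription. Ncoa4, the receptor that takes ferritin to the lysosome, stood at 26.7, 20.9 and 20.7 CPM in WT and at 28.4, 24.3, 33.9 and 31.3 CPM in ALAS1/2-KO (0.37, adjusted p = 0.170).

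Alas2, the target of the small interfering RNA, fell by 4.51 on the log2 scale (limma, adjusted p = 0.0027). Alas2 is a gene of red cell precursors, of whose markers 5 of 12 were listed, with a summed level of 12.2 to 42.7 CPM in WT and 3.64 to 8.51 CPM in ALAS1/2-KO. Of these 5, 1 passed as lower, the globin gene Hbb-bt, against 2.19% of all genes. The groups did not overlap for 4 of them, all globin genes, against 22.7%. The remaining marker, Klf1, overlapped, at 0.878 to 1.43 CPM in WT and 0.886 to 1.38 CPM in ALAS1/2-KO (log2 difference 0.08). The defining markers Slc4a1 and Gata1 are among those not in the table, and the part of red cell RNA in the Alas2 values was not tested.

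The genes whose profiles over the 7 libraries were most like that of Hamp were found by root mean square distance of centred log2 levels among 8535 genes that averaged 5 CPM or more. They were Tubb2a (distance 0.44), Slc1a4 (0.46), Osgin1 (0.47), Id2 (0.49) and Irgm2 (0.51), against a median distance of 0.81. All 5 were lowest in WT replicate 1, as Hamp was. Id2 is the BMP response gene given above. For Hamp2 they were Ces2a (0.32), Gask1a (0.37), Cyp2f2 (0.38), Slco1a4 (0.38) and Gbp3 (0.38), against a median of 0.99. All 5 passed the limma test as higher in ALAS1/2-KO, and the likeness of these profiles holds that difference between the groups as well as the spread within them.

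Sex-biased liver genes were read because the labels do not give sex. Of 14 genes that are higher in female liver, 6 were in the table. Of these 6, 2 passed as lower and 0 as higher, against 2.19% and 2.91% of all genes. Their median log2 difference was 0.65. Cyp17a1, a steroid hydroxylase, fell by 2.52 on the log2 scale (limma, adjusted p = 1.05e-04), and Cyp3a44 fell by 3.13 (limma, adjusted p = 0.019). The largest rise was that of Cux2, at 9.66 to 27.5 CPM in WT and 34.6 to 116 CPM in ALAS1/2-KO. Its groups did not overlap, and it missed the threshold (log2 difference 1.81, limma adjusted p = 0.0820). Cyp2b9 and Cyp2a4, the most abundant of the list, had log2 differences of 1.11 and 1.00 with overlapping groups. Of 5 genes of the sex chromosomes, 4 were in the table, the Y-linked Ddx3y, Eif2s3y, Kdm5d and Uty. Kdm5d and Uty stood at 10.4 to 18.1 CPM and 9.81 to 15.6 CPM over the 7 libraries. Xist is not in the table, which holds genes at 0.5 CPM or more in at least 3 libraries. Of the 4 genes, 0 passed, against 5.1% of all genes, and 1 had an unadjusted p under 0.05, against 23.7%.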

How the data were processed

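Hepatocytes from mouse liver gave 7 RNA sequencing libraries, 3 WT and 4 ALAS1/2-KO, grouped by their labels. RNA was extracted with Trizol, and 1 µg entered a TruSeq RNA kit (version 2), per the labels' protocols. Per the submitters' processing notes, cutadapt, HISAT2 and mm10 were used. Their versions, the read counter and the strand setting: not given in the sources used here. The authors deposited log2 CPM values for 12151 genes, each at 0.5 CPM or more in at least 3 libraries. All values (100%) were whole reads within 0.01 after a floor of 0.0676 CPM was taken off, with 1 read worth 0.0293 (WT replicate 3) to 0.0522 CPM (WT replicate 1), which limits precision at low levels. The deposited log2 values rest on scaled library sizes, whose ratio to the listed reads was 0.801 to 1.003 in WT libraries and 1.069 to 1.184 in ALAS1/2-KO libraries.

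Genes with at least 1 CPM in 3 libraries (12105) were tested in limma 3.58.1 (R 4.3.3) with trend and robust moderation, two-sided, with Benjamini-Hochberg adjustment and a threshold of 0.05. Fold changes include the deposited prior, which understates those of low genes. Differences between 2 genes were tested by exact permutation. Gene models and UTRs came from GENCODE M21 and promoters from RefSeq, read with Python 3.11.15 and Biopython 1.88. The procedure was tested on simulated data for this comparison: among 12067 genes run, it called 8% of genes made to differ by a log2 of 0.5, 43.8% for 1, 79.2% for 2, 100% for 3, and 5 of 11872 genes left as they were. The simulated spread was capped and was drawn for each gene on its own. It therefore leaves out the widest spreads, such as that of Hamp, and shifts shared by many genes of a library. For such genes these shares do not hold.

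The members and lists were chosen with earlier results of these data known. Named were all 10 members, in each list the called genes (at most 4), the 2 most abundant and a fixed set of iron regulators, in marker lists the 2 most abundant, and the 5 profiles nearest to Hamp and to Hamp2. Of these, some are given in the text only through their list. Some results from the lists are not reported here. Alternatives were other pseudocounts, filters, scalings, limma without trend, weights per library, voom on recovered reads, the replicate number as a block, and each library left out in turn. Leaving out ALAS1/2-KO replicates 1 and 2 together, and the comparison of Fth1 with Ftl1, were chosen after the data were seen. Same-numbered libraries of the groups had correlations of their deviations of -0.03, 0.05 and 0.18, so the numbers were not taken to pair them. The labels do not say whether replicates are separate animals. If they are not, p-values reflect technical spread among these libraries.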

Additional observations from a re-analysis of the deposited data

How the results depend on the processing

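The count of changed genes, 617, was 2735 with CPM rescaled to the listed reads, which moved the median of all genes to 0.32 and the share called higher from 57.1% to 92.6%, 306 without trend, 2001 with weights per library, 1113 without ALAS1/2-KO replicates 1 and 2, and 56 (without WT replicate 2) to 802 (without ALAS1/2-KO replicate 1) on leaving out a library. Scaling without mitochondrial and the 20 most abundant genes gave a share called higher of 42.3%. With the replicate number as a block the count was 72, with 0 members and 3 pathway genes called. The 1 member called, Hamp2, became 5 with listed reads (adding Tfrc, Tfr2, Trf and Slc39a14), 2 with quantile normalization and 2 without the most abundant genes (both adding Fth1), 3 with weights per library (adding Fth1 and Slc39a14), 0 with voom, and 0 to 1 on leaving out a library. The 5 pathway genes called became 18 with listed reads, 15 with weights, 11 without ALAS1/2-KO replicates 1 and 2, and 2 (without WT replicate 2) to 6 on leaving out a library. Without a WT library, Alas2 and Cyp3a44, which are under 1 CPM in ALAS1/2-KO, no longer met the filter.

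Members that were not called changed sign as follows, on the log2 scale. Slc40a1 was 0.16 with listed reads, 0.028 with weights and 0.13 without ALAS1/2-KO replicates 1 and 2. Hamp was -0.054 with weights, -0.077 without ALAS1/2-KO replicates 1 and 2, and -0.37 (without WT replicate 1) to 0.74 on leaving out a library. Trf was -0.0080 without the most abundant genes, and -0.026 (without WT replicate 3) to 0.12 on leaving out a library. Tfr2 was -0.065 with quantile normalization, and -0.0086 (without WT replicate 3) to 0.21 on leaving out a library. Ftl1 was -0.049 with quantile normalization, -0.021 with weights, and -0.12 (without WT replicate 3) to 0.22 on leaving out a library. Hfe was -0.042 without the most abundant genes, -0.0016 with quantile normalization, -0.034 with the block, and -0.065 (without ALAS1/2-KO replicate 3) to 0.12 on leaving out a library. Hamp2 stayed higher in all 19 alternatives and was called in 14, with an adjusted p of 0.126 with the block. Fth1 was -0.048 with listed reads. Fth1 minus Ftl1 ran from -0.56 to -0.28 on leaving out a library, with exact permutation p of 0.0667 to 0.1, the smallest those designs allow, and was -0.48 without ALAS1/2-KO replicates 1 and 2 (p = 0.2). The cause of these changes was not tested. Depth limits genes at few CPM, among them Hamp2, Bmp6, Alas2 and Cyp3a44.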
